A study of Mus musculus with 2 samples.

Results

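The Tob and Btg genes (Tob1, Tob2, Btg1, Btg2 and Btg3) encode a family of antiproliferative proteins, and the positions of Runx1 binding at these 5 genes were examined in mouse thymocytes, among 22265 protein-coding genes of the annotation. The family was chosen by a value from the same data, the score of the peak at the Tob2 promoter, which is among the highest at promoters in the list, so the score and the presence of the Tob2 peak are given as a description and not as a finding. Each gene was examined from 50 kb upstream to 50 kb downstream of its body, and a Runx1 peak was counted if its centre lay in this window.

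Chromatin came from CD4+CD8+ double-positive (DP) thymocytes of C57BL/6 mice, sorted magnetically from the thymus. The series holds 1 Runx1 ChIP-seq library, made with an anti-Runx1 antibody, and 1 input library, made from the same kind of cells with no antibody. The methods of the study state that mice were killed at a few weeks of age, the number of mice pooled is not given, and the catalogue number of the antibody differs between the labels and the methods of the study. Those methods print the same catalogue number for the Runx1 antibody and for an antibody against a histone mark. The deposited files list peaks on the mm9 assembly, 1 list for each library, with a whole-number score for each peak that the authors did not define there. There were 3531 peaks in the Runx1 list, scored between 14 and 129 around a median of 18, and 740 in the input list, scored between 6 and 159. Read counts are not part of these files and the depth of sequencing is therefore unknown. Each condition had a single library, which leaves no replicate error to compare with, and no test was made. No expression was measured in these libraries, so the purity of the sorted cells could not be checked against markers.

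The Tob and Btg proteins share an amino-terminal domain that binds the CNOT7 and CNOT8 deadenylases of the CCR4-NOT complex, and so bring messenger RNAs to the enzymes that shorten their poly(A) tails. They restrain cell division, and several of them are known for keeping lymphocytes in a resting state. Runx1 belongs to the RUNX transcription factors, which recognise the core sequence TGTGGT on DNA, and it is needed at several steps of T-cell development in the thymus.

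Of the 5 genes, 2 had a Runx1 peak in the window, Tob2 and Btg2, each with 1 peak, and 3 had none, namely Tob1, Btg1 and Btg3. A peak was found in the same kind of window at 5762 of the 22265 protein-coding genes, or 25.9%, and at 23.8% of the 12579 genes with a body of at most 20 kb, a range of length that includes all 5 genes. Both peaks also lay within 5 kb of the transcription start site (TSS), as did a peak at 1007 of the protein-coding genes, or 4.52%. Since the family was chosen for the Tob2 peak, nothing is read from these shares. No input peak lay in any of the 5 windows, while 2.25% of protein-coding genes had one, and neither of the 2 Runx1 peaks overlapped an input peak. The methods of the study describe calling transcription factor peaks with a threshold of enrichment over input. If the deposited list was called that way, this lack of overlap was partly set in advance and is no independent check.

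**Figure D1:**
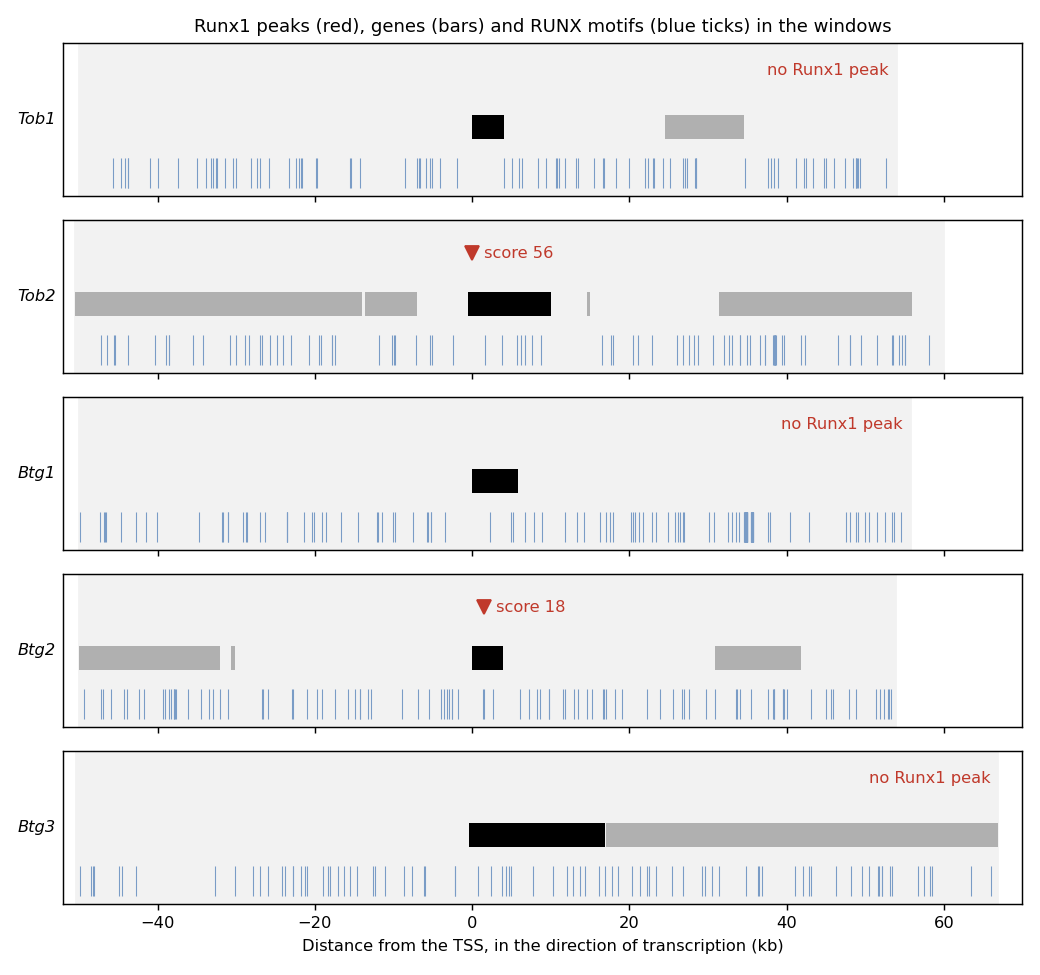
Windows of the 5 genes. The x axis gives the distance from the TSS in kb in the direction of transcription; black bars are the gene, grey bars other protein-coding genes cut at the window edge, blue ticks RUNX motifs and red triangles Runx1 peak centres with their score. Tob2 has a peak with a score of 56 at its TSS and Btg2 a peak with a score of 18 inside the gene, whereas the windows of Tob1, Btg1 and Btg3 hold motifs but no peak.

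Tob2 is the paralogue of Tob1, and lies on the minus strand of chromosome 15 (81678700 to 81689226, mm9). Its peak lay at chr15:81688664-81688850, was 187 bp wide and had a score of 56. The centre was 1 bp upstream of the TSS at 81688756, so that 94 bases of the peak were upstream of the TSS and 93 in the 5′ untranslated part of the first exon. The annotation holds a second, shorter entry of the same name, which starts farther upstream. In that entry 27 bases of the peak are coding sequence of its second exon and the rest is intron. The nearest TSS of any protein-coding gene to this peak was that of Tob2 itself.

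The bases of the Tob2 peak upstream of the TSS are shown with the same stretch of Tob1, which had no peak, since they show what stands at the promoter where the peak was found. Both are from the NCBIM37 (mm9) assembly, read 5′ to 3′ on the strand of the gene and ending at the base before the TSS, with matches to the GC box (GGGCGG on either strand) in capitals. The Tob2 stretch is chr15:81688757-81688850 on the minus strand, and that of Tob1 is chr11:94072674-94072767 on the plus strand.
Tob2: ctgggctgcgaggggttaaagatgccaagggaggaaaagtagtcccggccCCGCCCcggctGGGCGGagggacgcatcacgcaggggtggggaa
Tob1: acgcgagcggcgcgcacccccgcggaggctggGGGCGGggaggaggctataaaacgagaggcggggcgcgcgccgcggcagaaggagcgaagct
The Tob2 stretch held 2 GC boxes, at 81688795 to 81688800 and 81688784 to 81688789, which are 40.5 and 29.5 bp from the peak centre, and the Tob1 stretch held 1. Neither stretch held the core TGTGGT. The GC content was 68.1% in the Tob2 stretch, with 7 CpG dinucleotides, and 75.5% in that of Tob1, with 16.

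By score, the Tob2 peak stood at rank 62 of the 3531 Runx1 peaks, a rank shared by 16 peaks, and 97.8% of peaks had a lower score. Among the 868 peaks that lay no farther than 5 kb from a protein-coding TSS it was at rank 17, shared by 2 peaks. Only 28 peaks of the whole list had their centre within 10 bp of such a TSS, and their scores ran from 16 to 56 with a median of 18. Within 100 bp of a TSS there were 210 peaks, and their scores reached 94, above that of Tob2. As the score led to the choice of the family, these ranks describe the peak.

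**Figure D2:**
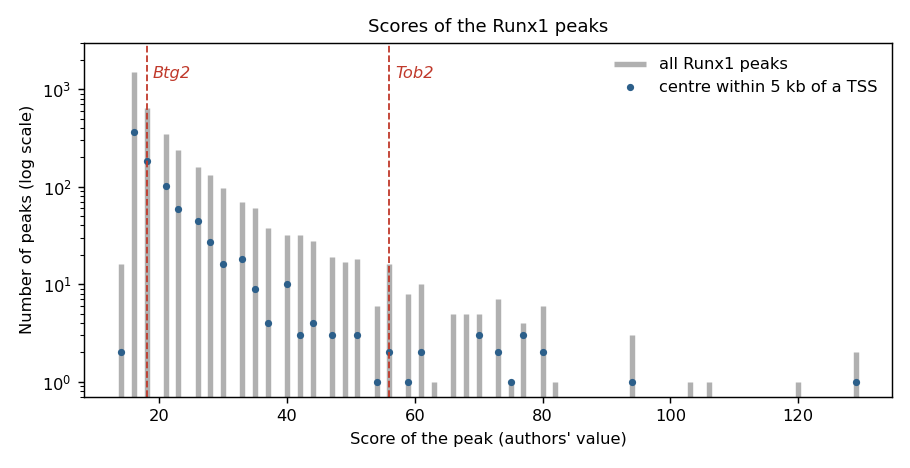
Number of Runx1 peaks at each score. The x axis is the authors' score per peak and the y axis the number of peaks on a log scale; grey bars are all peaks, blue points those with a centre within 5 kb of a TSS, and dashed lines the peaks at Btg2 and Tob2. The Btg2 peak, at 18, is at the median of the list and near its lowest score of 14, while the Tob2 peak, at 56, is in its upper tail.

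No RUNX core TGTGGT was found within 100 bp of the centre of the Tob2 peak on either strand, and none within 200 bp. The variant TGCGGT was absent from the same 100 bp. The closest match to TGTGGT was 1680.5 bp from the centre, whereas the median over all peaks was 366.5 bp. A match as far away as that of Tob2 or farther was seen for 253 of the 3531 peaks, or 7.17%. The core was present within 100 bp for 26.5% of all peaks, as compared with 14.6% of stretches of the same length 1 kb to either side. It was present for 28 of the 77 peaks with a score at least that of Tob2, or 36.4%, and for 22.9% of the 210 peaks centred within 100 bp of a TSS. The motifs of other factor families gave no match either, neither the ETS cores AGGAAG or CGGAAG, found at 41.2% of peaks, nor the E-boxes CAGCTG or CAGGTG, found at 41.3%, nor the GATA sequence AGATAA, found at 6.34%. The GC box was the one searched motif that the Tob2 peak held; 15.2% of all peaks and 31.5% of those within 5 kb of a TSS held it. A motif match describes the letters in the window and does not show whether a factor was bound.

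Btg2, an early-response gene that is also induced by p53, lies on the minus strand of chromosome 1 (135971747 to 135975697). Its peak lay at chr1:135974033-135974219, with a score of 18. The centre was 1571 bp downstream of the TSS at 135975697, and all 187 bases lay in the coding sequence of the second exon (135973949 to 135974280). The nearest protein-coding TSS was again that of the gene itself. A score of 18 is also the median of the list and was shared by 640 peaks, and 43.2% of peaks had a lower one. The scores took few values, and only 14 and 16 occurred below 18, so this peak was near the floor of the list. A centre in coding sequence was uncommon, at 117 of the 3531 Runx1 peaks, or 3.31%, and only 25 peaks, or 0.708%, lay wholly within coding sequence. The scores of those 25 ran from 16 to 26, with a median of 16.

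The whole Btg2 peak is shown on the strand of the gene, since it holds both forms of the RUNX core in an exon. The capitals mark the reverse complements of TGTGGT, at positions 9 to 14 of the peak (135974206 to 135974211), and of TGCGGT, at positions 129 to 134 (135974086 to 135974091), counted from 1 at the 5′ end of the sequence.
Btg2: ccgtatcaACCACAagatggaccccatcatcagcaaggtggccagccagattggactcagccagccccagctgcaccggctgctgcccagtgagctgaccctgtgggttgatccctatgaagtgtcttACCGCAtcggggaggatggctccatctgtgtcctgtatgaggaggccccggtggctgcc
The first match was centred 82.5 bp from the peak centre, towards the edge of the peak, and extended to the longer form TGTGGTT, which 13% of all peaks held. The second was 37.5 bp from the centre, and TGCGGT was held by 9.69% of all peaks, 18.8% of those within 5 kb of a TSS and 17.9% of those centred in coding sequence. An E-box CAGCTG was also found, 23.5 bp from the centre. Among the 117 peaks centred in coding sequence, TGTGGT was found at 23.1% and one of the E-boxes at 51.3%. The core was thus present at the Btg2 peak and absent from that of Tob2.

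Base composition was similar at both peaks, with a GC content of 62% for Tob2 and 61% for Btg2, against a median of 54% over all peaks and 57.8% over those within 5 kb of a TSS. The Tob2 peak held 12 CpG dinucleotides and that of Btg2 held 5, against a median of 4 over all peaks and of 8 over those within 5 kb of a TSS. No base of either peak was masked as a repeat in the reference, and the 32 bases at the centre of each occurred exactly once in the assembly, on both strands together.

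Tob1, which restrains T-cell activation, lies on the plus strand of chromosome 11 (94072768 to 94076809), and had no peak in its window. The nearest Runx1 peak had its centre 163.0 kb downstream of the TSS (chr11:94235660-94235846), a score of 16 and no RUNX core within 200 bp. Abcc3, which encodes a membrane transporter, was nearer to this peak, with its TSS at 18.5 kb. For Btg3, on the minus strand of chromosome 16 (78360105 to 78377437), the nearest peak was 177.9 kb downstream of the TSS (chr16:78199078-78199264), had a score of 18, and held the core 66.5 bp from its centre. Its nearest protein-coding TSS was that of Cxadr, a cell adhesion gene, at 102.8 kb.

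Btg1, on the plus strand of chromosome 10 (96079635 to 96085447), is the closest relative of Btg2 and likewise acts in lymphocyte quiescence. Its nearest peak was 108.1 kb downstream of the TSS and 102.2 kb from the gene body (chr10:96187598-96187784). With a score of 35 this was the second highest score among the peaks nearest to the 5 genes, after that of Tob2. It was also the peak closest to the limit of a window from outside, whereas both peaks inside the windows were at the genes themselves. No protein-coding TSS was nearer to it than that of Btg1, and the window of Btg1 held no other protein-coding gene. The peak is shown on the plus strand, as a region between genes whose single RUNX core, in capitals, lies 15.5 bp from the centre.
Btg1: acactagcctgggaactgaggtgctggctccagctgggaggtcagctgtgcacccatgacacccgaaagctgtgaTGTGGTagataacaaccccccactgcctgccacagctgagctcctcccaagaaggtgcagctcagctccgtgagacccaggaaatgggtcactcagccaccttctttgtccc
This peak also held 3 E-box matches and 1 match to the GATA sequence within 100 bp of the centre. Nearness along the chromosome does not tie a peak to a gene.

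**Figure D3:**
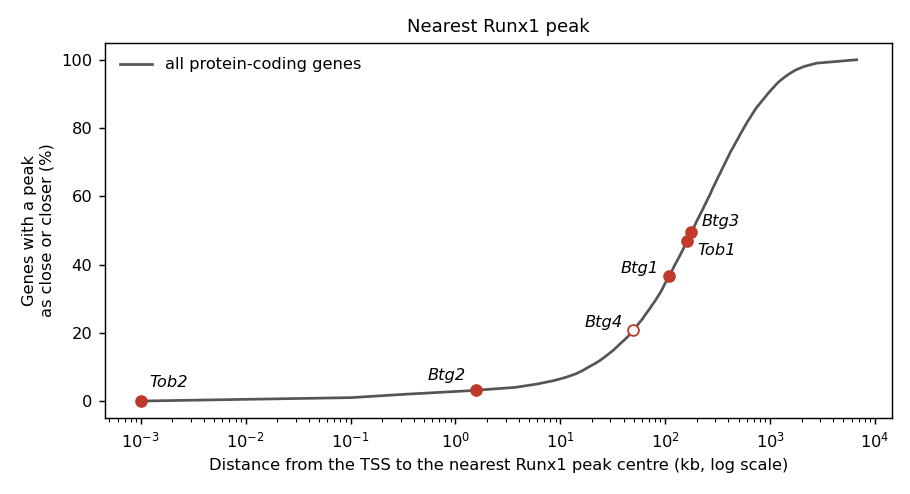
Distance from the TSS to the nearest Runx1 peak centre. The x axis is the distance in kb on a log scale and the y axis the percentage of protein-coding genes with a peak as close or closer (curve); filled points are the 5 genes and the open point Btg4. Tob2 (0.001 kb) and Btg2 (1.57 kb) stand at the lower end of the curve, and Btg1, Tob1 and Btg3 between 108.1 and 177.9 kb.

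For Tob1 and Btg3, the nearest peak was about as close as for the median gene, and for Btg1 it was somewhat closer. The distance from the TSS to the nearest peak had a median of 181.7 kb over all protein-coding genes, with quartiles of 63.6 and 455.6 kb. A peak as close or closer was found for 36.5% of genes in the case of Btg1, 46.9% for Tob1 and 49.4% for Btg3, and for 3.13% in that of Btg2. Btg4, the paralogue known from oocytes and not counted among the 5 genes, had 1 peak in its window, 49.7 kb downstream of the TSS (chr9:50973693-50973879), with a score of 16. The TSS of Pou2af1, a lymphoid co-activator gene, was at 48 kb from that peak and thus slightly nearer.

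Within 500 kb of the TSS, Tob1, Tob2 and Btg2 each had 4 Runx1 peaks, Btg1 had 3 and Btg3 had 1, while the median over all genes was 2 with quartiles of 1 and 3. The scores of the peaks around Tob1 were 16, 16, 16 and 28, and the nearest TSS was that of another gene for each of them. Around Tob2, the 3 peaks other than that at the TSS had scores of 16, 18 and 18 and lay at 169.7 kb or farther. Around Btg1, the scores were 16, 35 and 18 at 246.0 kb upstream, 108.1 kb downstream and 407.8 kb downstream, and the TSS of Btg1 was the nearest for all 3. Around Btg2, the peaks other than that in the exon had scores of 16, 21 and 16, and lay 206.4, 478.0 and 481.0 kb upstream, nearer to Myog and, for the last 2, to Kdm5b. None of these peaks overlapped an input peak. The nearest input peak to a TSS of the 5 genes was 70.7 kb from that of Btg3, with a score of 18; for the others it was 4099.6 kb away or farther.

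**Figure D4:**
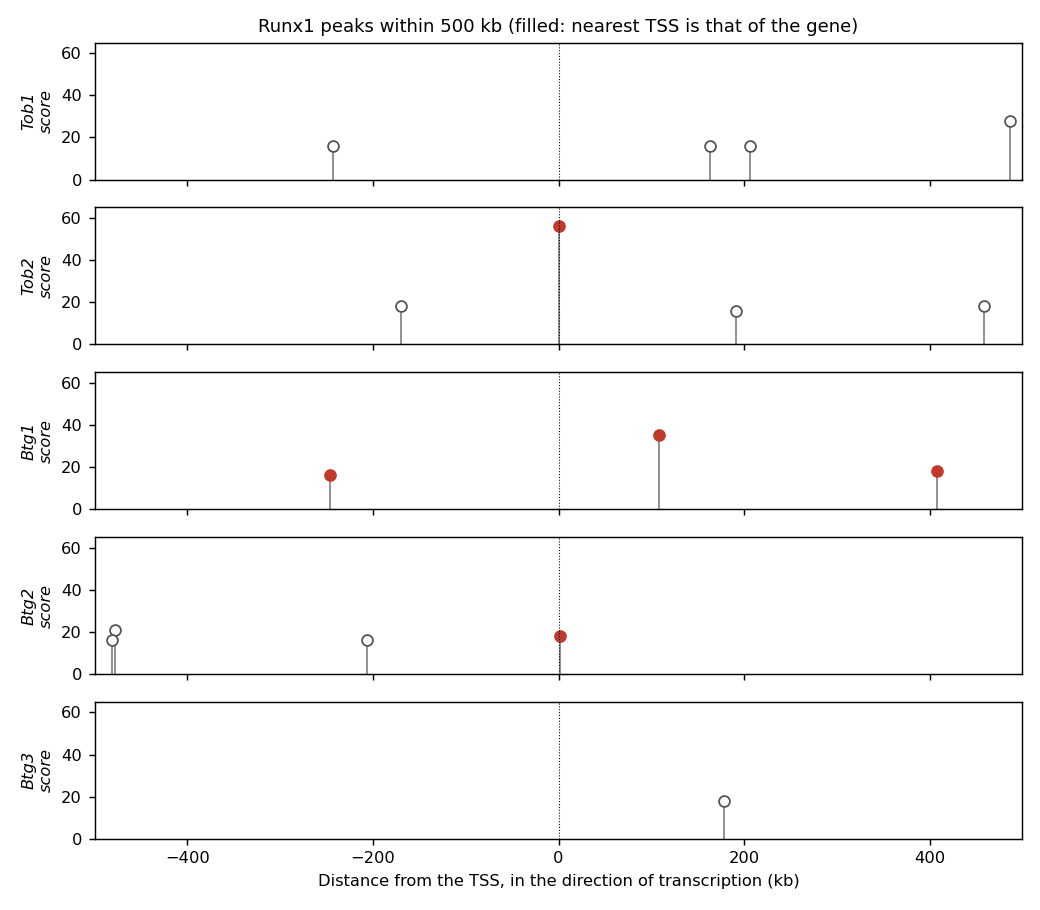
Runx1 peaks within 500 kb of the TSS of each gene. The x axis is the distance from the TSS in kb in the direction of transcription and the y axis the score; filled points are peaks whose nearest protein-coding TSS is that of the gene, open points the others. Tob2 has the highest point, at 56, and Btg1 is the one gene with 3 filled points.

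RUNX cores were found in the windows with and without a peak. TGTGGT occurred 89 times in the window of Tob1, 87 in that of Tob2, 121 in that of Btg1, 99 in that of Btg2 and 86 in that of Btg3. Per kb, this came to 0.855, 0.787, 1.14, 0.952 and 0.733, respectively, against 0.772 over the genome. In the window of Btg1, 35 of the 121 cores lay in a single stretch of 2 kb, between 33.9 and 35.7 kb downstream of the TSS, whereas the densest 2 kb of the other 4 windows held between 6 and 9. With the densest 2 kb of each window left out, Btg1 had 86 cores and Btg2 had 91, or 0.828 and 0.893 per kb, and the other windows had between 0.694 and 0.804 per kb. Within 5 kb of the TSS, 10 cores were counted at Btg2, 8 at Btg3, 3 at Tob1, 3 at Tob2 and 2 at Btg1. Btg3 therefore had almost as many as Btg2 and no peak within its window. In the RefSeq promoters of the 5 genes (GRCm38.p6, 250 bases before to 50 after the start, with 2 entries for Btg3), neither TGTGGT nor TGCGGT was found. Of all 32851 RefSeq promoters of this length, 16.8% held TGTGGT and 6.45% held TGCGGT. The GC box was found 3 times at Tob1, 3 times at Btg2, 2 times at Tob2, 2 times at Btg1 and 2 times in one of the Btg3 promoters, and in 35.7% of all promoters.

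**Figure D5:**
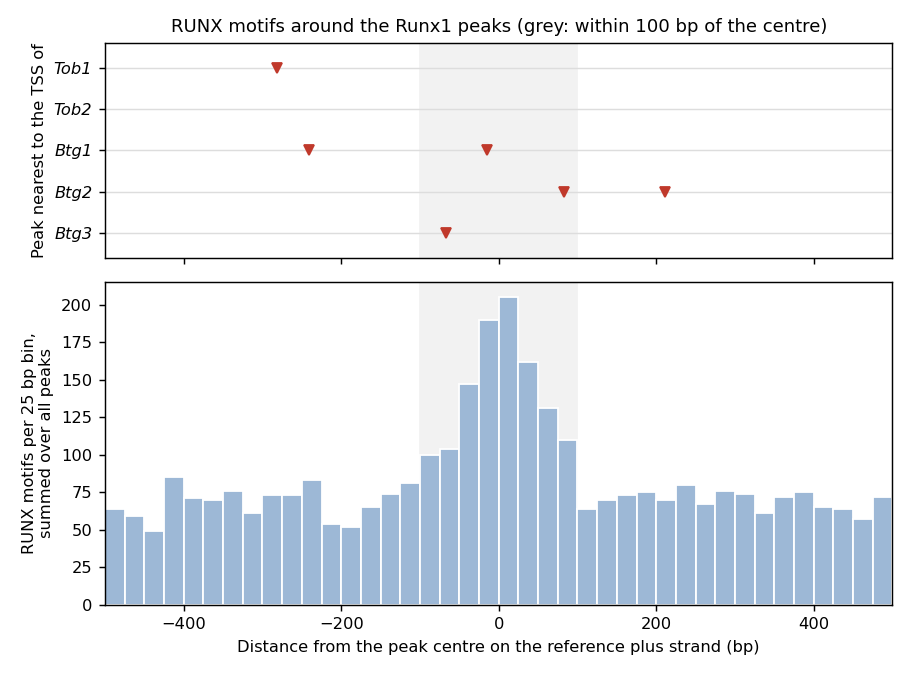
RUNX cores around Runx1 peaks. The x axis is the distance from the peak centre in bp; the lower panel gives the number of cores per 25 bp over all 3531 peaks, and the upper panel the cores around the peak nearest to each of the 5 genes (triangles). Cores gather at the centre of the peaks in all; the peaks near Btg1, Btg2 and Btg3 have a core within 100 bp, that near Tob1 has its closest 281.5 bp away and that of Tob2 has none in the range plotted.

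To place the family beside the genes whose products act with it, the list of 16 genes for subunits of the CCR4-NOT and PAN2-PAN3 deadenylases, the poly(A)-binding proteins Pabpc1 and Pabpc4 and the methyltransferase Prmt1, which binds Btg1, was examined in the same way. A Runx1 peak was found in the window at 3 of the 16 genes, or 18.8%, as compared with the 25.9% of all protein-coding genes given above, and within 5 kb of the TSS at 2, or 12.5%, as compared with the 4.52% of all protein-coding genes. Cnot8, one of the deadenylases that the Tob and Btg proteins bind, had a peak 1.43 kb upstream of its TSS (chr11:57916131-57916317) with a score of 21. Pan2, the catalytic subunit of the PAN2-PAN3 deadenylase, had a peak 0.334 kb downstream of its TSS (chr10:127740632-127740818) with a score of 16. The peak in the window of Pabpc1 lay 43.2 kb downstream of the TSS, with a score of 21. Cnot7, the other deadenylase bound by the family, had its nearest peak at 702.7 kb. Over the 16 genes the distance to the nearest peak had a median of 194.1 kb, close to the 181.7 kb of all genes.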

How the data were processed

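The authors deposited, for each of the 2 libraries, the positions of their peaks on mm9 and a score per peak. HOMER is named in the submitters' processing notes, the aligner used for these libraries is not given in the sources used here, and the score served only to describe, rank or filter peaks. Coordinates were counted from 1 and set against the NCBIM37 assembly, in which no Runx1 peak ran past a chromosome end. Genes were the protein-coding genes of GENCODE vM1; entries of 1 name that overlapped on 1 strand were joined, and the TSS was that of the longest protein-coding transcript. RUNX cores were searched on both strands within 100 bp of the peak centre. Neighbouring genes of a peak were those with the nearest TSS.

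The members, lists and motifs were chosen with earlier results of these data known, and the restriction to genes of at most 20 kb, the description of peaks outside the windows and the count without the densest 2 kb of cores were added after seeing the data. The genes named were the 5 members, Btg4, the genes with a TSS nearest to a peak described and the genes acting with the family that had a peak within 5 kb of the TSS. Pabpc1, Pabpc4 and Prmt1 were also named to say what that list holds, and Cnot7 and the value of Pabpc1 were given after they were seen. Expression values were not used here. The counting was tested on simulated data. Python 3.11.15, numpy 2.4.6 and matplotlib 3.10.9 were used.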

Additional observations from a re-analysis of the deposited data

How the results depend on the processing

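Over the alternatives, 21 counts kept their value and 4 moved. With only the peaks in the upper quartile of scores (at least 23), the Btg2 peak dropped out by construction, which left 1 peak in the windows, 1 gene with a peak in the window and 1 gene with a peak within 5 kb of the TSS. Within 1 kb of the TSS, 1 gene had a peak, Tob2. With flanks of 25 or 100 kb, any overlap of at least 1 bp, a score at or above the median, removal of peaks that overlap input or peaks limited to their nearest TSS, the windows still held 2 peaks. The Btg2 score of 18 equals the median, so the median setting kept this peak by construction. A cut at a score of 21, the next in the list, would have dropped it. Neither peak overlapped an input peak, so removing such peaks could not change the count. The number of these peaks with a RUNX core stayed at 1 for TGTGGT or TGCGGT, for TGTGGTT, and for a search of the called peak or of 200 bp on each side.

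No paired analysis was possible because there was a single Runx1 library and a single input library, and no replicate was left out for the same reason. Lists without counts do not show how deeply the windows of Tob1, Btg1 and Btg3 were sequenced.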

Other observations

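Some of the other peaks around these genes lay at the TSS of another gene, and they were picked out after seeing the data. Over the whole list, 210 of the 3531 Runx1 peaks, or 5.95%, were centred within 100 bp of a TSS. A peak 243.1 kb upstream of Tob1 was 58 bp from the TSS of Nme2 (score 16), one 458.3 kb downstream of Tob2 was 25 bp from that of St13 (score 18), and one 481.0 kb upstream of Btg2 was 36 bp from that of Kdm5b (score 16).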
